A study of Mus musculus with 18 samples.

Results

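Stra8, a gene that retinoic acid switches on in germ cells as they approach meiosis, was followed across 9 groups of mouse cells together with 8 genes of the retinoic acid pathway. The 9 genes were chosen by name, as every probe of Stra8, Aldh1a1, Aldh1a2, Crabp1, Crabp2, Rarb, Rarg, Cyp26a1 and Cyp26b1 that is not a control. They hold 11 of the 41174 probes of the array, and all 9 were among the 18876 genes tested. RNA was labelled with Cy3 and hybridised to 18 one-colour Agilent arrays, 2 in each of 9 groups.

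All samples were labelled male, of a mixed C57BL/6 and 129SV strain. The in vivo groups were Dazl-GFP-positive cells, sorted from testes of juvenile mice at P7 to P11 and from embryonic gonads at E13.5. Dazl is an RNA-binding protein of germ cells, and the reporter marks cells by green fluorescent protein (GFP). From embryonic stem (ES) cells with the same reporter there were GFP-positive and GFP-negative undifferentiated cells, and GFP-positive cells at day 12 and at day 16 of differentiation. From ES cells that carry a Stella-GFP reporter on a bacterial artificial chromosome (Stella is the product of Dppa3) there were GFP-positive cells at day 7 of differentiation, and GFP-positive and GFP-negative undifferentiated cells. The submitters call the differentiated cells in vitro primordial germ cells (PGCs, the founders of the germ line). Each reporter was used in a single ES cell line grown on feeder fibroblasts. Before differentiation the feeders were depleted, and all groups were sorted by fluorescence. The labels do not say whether the 2 samples of a group came from separate cultures or animals, so p-values measure only the spread between these samples. In sorted bulk samples such as these, fewer cells of a type and less RNA per cell cannot be told apart.

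Retinoic acid is made from vitamin A. Retinol is first oxidised to retinaldehyde, and the ALDH1A enzymes turn that into retinoic acid. Inside the cell it is held by the CRABP proteins, acts on the RAR nuclear receptors, which pair with RXR receptors on DNA, and is destroyed by the CYP26 enzymes. In the fetal ovary it induces Stra8 and the germ cells enter meiosis. In the fetal testis CYP26B1 keeps retinoic acid away from the germ cells, and meiosis waits until after birth, when retinoic acid drives spermatogonia to differentiate. Rarb and Cyp26a1 are classic direct targets, through paired half-sites in their promoters.

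Promoters are shown for Stra8, whose level moved most, and for Cyp26a1 and Rarb, whose windows held a direct repeat of the receptor half-site. Each stretch is the 120 bases before an annotated start, on the gene's own strand, 5′ to 3′, from RefSeq on GRCm38.p6. The lines cover chr6:34920828-34920947 on the + strand for Stra8, chr19:37697688-37697807 on the + strand for Cyp26a1 and chr14:16575477-16575596 on the - strand for Rarb. For all 3 genes this start lies inside the annotated extent of the gene. Capitals mark the repeat that was found.
Stra8: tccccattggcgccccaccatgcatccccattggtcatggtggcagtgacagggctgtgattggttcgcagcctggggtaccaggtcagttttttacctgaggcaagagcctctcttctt
Cyp26a1: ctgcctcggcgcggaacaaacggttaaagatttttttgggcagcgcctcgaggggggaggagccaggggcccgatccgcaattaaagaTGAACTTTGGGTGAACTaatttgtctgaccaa
Rarb: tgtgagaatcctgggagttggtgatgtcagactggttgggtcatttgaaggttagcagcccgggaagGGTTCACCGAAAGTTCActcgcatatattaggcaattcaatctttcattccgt

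The half-site AGGTCA and its variants AGTTCA or else GGGTCA or else GGTTCA were searched as direct repeats with a spacer of 1, 2 or 5 bases, on both strands of the 300-base windows around the starts. A repeat with any of the 3 spacers was in 193 of 32851 windows of the table (0.588%), and one with a spacer of 5 in 32 (0.0974%). Of the members, 8 had 10 windows. Cyp26a1 held a repeat with a spacer of 5 at -32 to -16 from its start (chr19:37697776-37697792), read on the strand opposite to the gene. Rarb held one with a spacer of 5 at -53 to -37 (chr14:16575513-16575529), read on the gene's own strand. No repeat with these letters was in the windows of Stra8, Cyp26b1, Crabp1, Rarg, Aldh1a1 or Aldh1a2, and the Stra8 window held 2 single half-sites. Crabp2 is named only. A match of letters is a description and not a measured binding site.

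A level below is the log2 of the probe's signal over the 75th percentile of its array. A level of 0 equals that percentile, and a difference of 1 in level is a 2-fold difference. Levels of different probes are not compared with each other. The 75th percentile of the signal lay between 103 and 474 intensity units, 50.6% to 68.9% of the spots were well above background, and the replicates of a group correlated with r from 0.943 (E13.5) to 0.994 (Stella-GFP day 7). The germ cell markers (Dazl, Ddx4, Dppa3 and 6 others) were well above background on all 18 arrays, 9 of 9, so they do not set ES cells apart by presence. Dazl itself was 0.79 and 0.73 in Dazl-GFP-positive ES cells, against -3.28 and -3.42 in GFP-negative ones. A gene was called changed at a Benjamini-Hochberg adjusted p under 0.05 over all genes, in 1 limma fit of all arrays. That fit takes 1 spread for each gene from all 9 groups. The 2 E13.5 arrays differed widely for several members, which enlarges the standard errors of those genes in every comparison. Values without the library labelled E13.5 replicate 1 are therefore given beside the results they change.

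Stra8 was well above background on all 18 arrays, and its level was far higher in the Dazl-GFP cells after differentiation and in the testis than in ES cells. It stood at 8.95 and 8.84 at day 12 and at 8.53 and 8.44 at day 16, against -0.026 and -0.076 in Dazl-GFP-positive ES cells. In juvenile testis it was 7.75 and 7.06. In the Stella line it was 3.46 and 3.49 at day 7, against -1.02 and 1.51 in GFP-positive ES cells. The E13.5 arrays gave 8.87 for replicate 1 and 1.55 for replicate 2. The day 12, day 16 and juvenile arrays all lay far above every ES array, and E13.5 replicate 1 lay with them, while replicate 2 lay near the highest ES array.

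**Figure D1:**
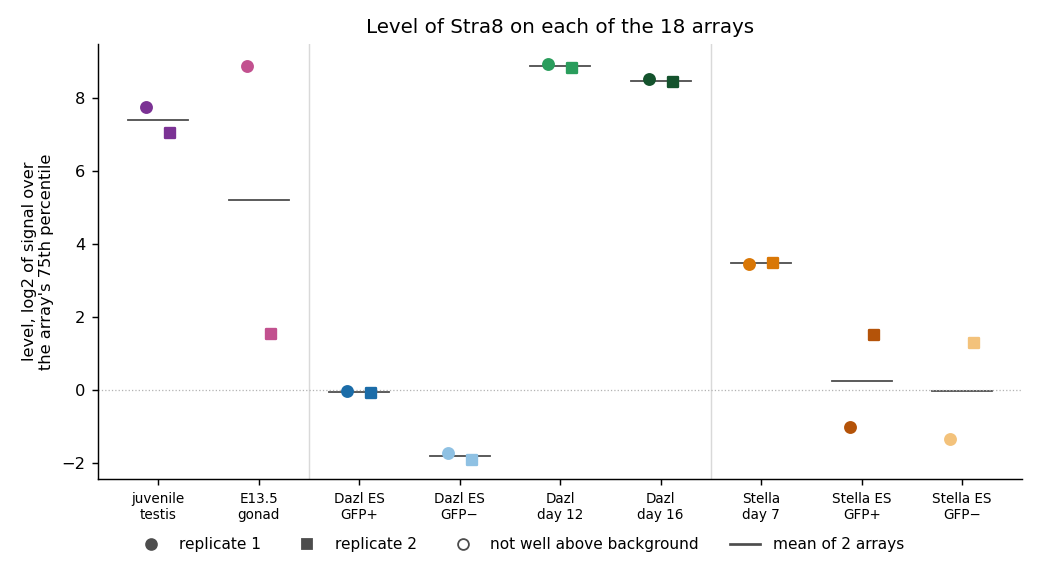
Level of Stra8 on each of the 18 arrays, as log2 of the signal over the array's 75th percentile, by group along the x axis. Circles are replicate 1, squares replicate 2 and lines the mean of 2 arrays; day 12, day 16 and juvenile testis lie between 7.06 and 8.95, and the E13.5 pair lies at 8.87 and 1.55.

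Against Dazl-GFP-positive ES cells, Stra8 rose by a log2 of 8.95 ± 1.73 (SE) at day 12 (494-fold, adjusted p = 0.00316) and of 8.54 at day 16 (371-fold, adjusted p = 0.00457). In juvenile testis it rose by 7.46 (176-fold, adjusted p = 0.00349). These 3 calls held under each of the 15 alternatives run for them, with the largest adjusted p at 0.0382. When E13.5 replicate 1 was left out the standard error was 0.836 and the adjusted p 3.38e-05 at day 12, 5.48e-05 at day 16 and 2.93e-05 in juvenile testis. On the slide that held both groups the difference was 8.92 at day 12 and 8.52 at day 16. Between day 16 and day 12 the difference was -0.41, which was not called. No cultured cells shared a slide with the in vivo cells, so there slide and group cannot be told apart.

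At day 7 Stra8 stood 3.23 higher in Stella-GFP cells than in their GFP-positive ES cells, with an adjusted p of 0.210 by limma. Leaving out E13.5 replicate 1 left the difference as it was, with a standard error of 0.836 and an adjusted p of 0.0158. The ES arrays it is set against were far apart, and so were those of Stella-GFP-negative ES cells at -1.35 and 1.3. In both groups replicate 1 was on the first slide and replicate 2 on the second, and a wider gap between replicates was seen in 0.625% of all genes for GFP-positive and 0.350% for GFP-negative cells. Both day 7 arrays lay above all 4 of these ES arrays. Day 7 had slides of its own, so slide and group cannot be told apart.

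Between GFP-positive and GFP-negative cells of the undifferentiated lines Stra8 did not pass the test. In the Dazl line it was -0.026 and -0.076 in GFP-positive cells, against -1.73 and -1.91 in GFP-negative cells. The groups did not overlap, with a difference of 1.77 (adjusted p = 0.822, and 0.295 without E13.5 replicate 1), and 1.70 and 1.83 within the 2 slides. In the Stella line the difference was 0.27.

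The group means of Stra8 spanned 10.71 log2 units, from Dazl-GFP-negative ES cells to day 12. Only 0.0636% of all genes spanned more, and the median gene spanned 1.94. In the order of means, day 12, day 16, juvenile testis, E13.5 and Stella-GFP day 7 came first, then the ES cells. The arrays of day 12 and day 16 did not overlap, nor did those of day 16 and juvenile testis. E13.5 overlapped both of its neighbours, and the 2 Stella ES groups and Dazl-GFP-positive ES cells overlapped each other.

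The E13.5 pair was labelled as 1 group, yet its arrays differed by 7.33 in Stra8, and only 3 genes of 18876 were higher by more in replicate 1. Meiotic genes went with Stra8. Rec8, a meiotic cohesin, was 7.45 in replicate 1 and 3.14 in replicate 2, and Sycp3, of the synaptonemal complex, was 1.13 and -1.77. Of 25 meiotic entry genes tested, 25 were higher in replicate 1, 20 of them by more than 1, as were 14.6% of all genes. Nanos2, which holds male germ cells out of meiosis, was not well above background in replicate 1 at -5.63 and was 0.39 in replicate 2. Of 17 genes of male embryonic germ cells 11 were lower in replicate 1, 8 of them by more than 1, as were 11.3% of all genes. Nodal and Lefty1, named after their values were seen, were -1.39 and -2.54 in replicate 1 and 3.37 and 5.5 in replicate 2.

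Germ cell identity genes were high in both libraries. Dazl was 5.42 and 5.28, Ddx4, an RNA helicase of germ cells, was 5.59 and 4.98, and Dppa3 was 5.43 and 6.95 in replicates 1 and 2. The Y-linked genes Ddx3y, Eif2s3y and Kdm5d were not well above background in replicate 1, at -7.45, -7.29 and -7.25. In replicate 2 they were well above it, at -1.36, 3.17 and -1.82. The library labelled E13.5 replicate 1 thus goes against its male label in all 3 Y-linked genes tested. Every E13.5 mean below rests on this unlike pair, and its arrays are given singly.

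**Figure D2:**
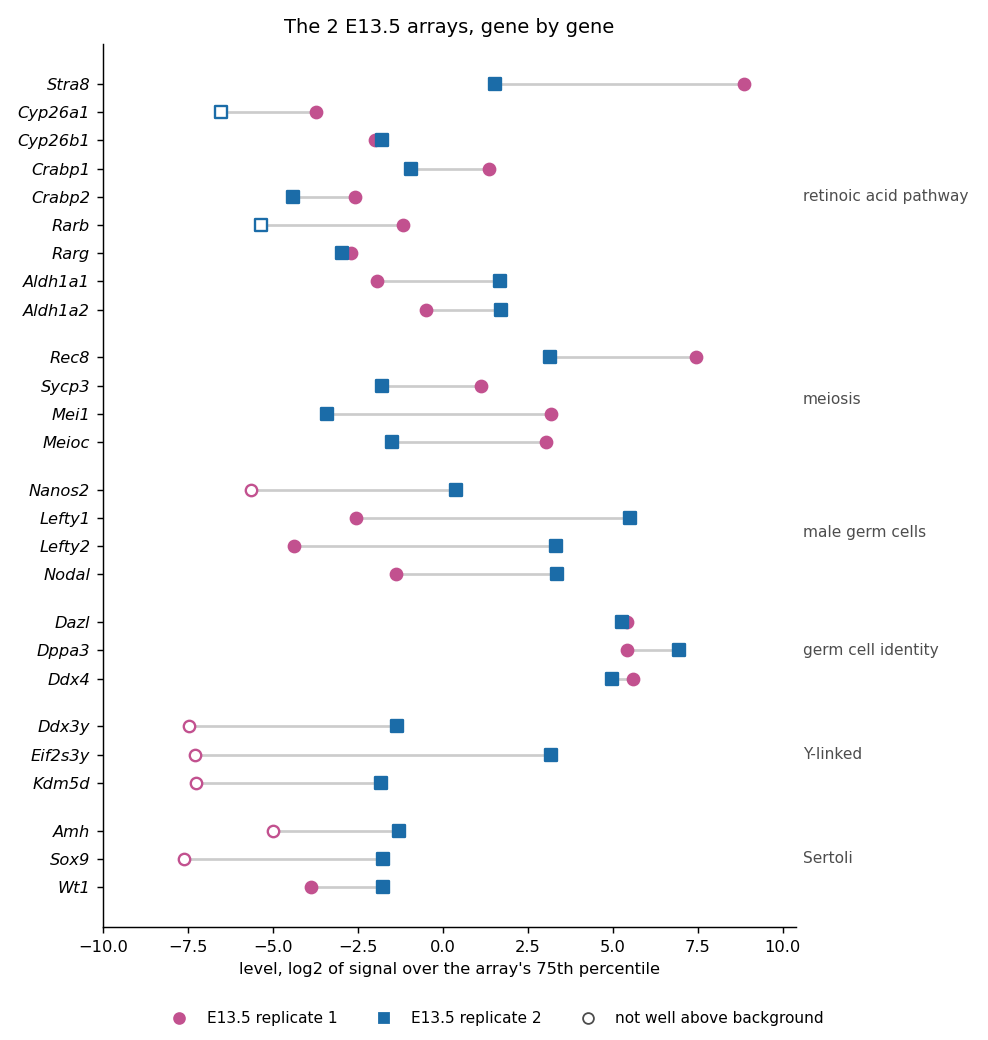
Levels of the 9 retinoic acid pathway genes and of marker genes on the 2 E13.5 arrays, in log2 of signal over the array's 75th percentile. Circles are replicate 1, squares replicate 2, and open symbols are not well above background; Stra8, Rec8 and Sycp3 are higher in replicate 1, and Nanos2, the Y-linked genes and the Sertoli markers in replicate 2.

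Sertoli cells, the somatic cells that nurse germ cells in the testis, differed between these arrays too. Amh, a Sertoli cell hormone, and Sox9, a transcription factor that sets their identity, were not well above background in replicate 1, at -5.0 and -7.60. In replicate 2 they were -1.3 and -1.76. Of 15 Sertoli markers 11 were lower in replicate 1, 9 by more than 1. Of the ovarian markers Foxl2 was -3.51 and -3.33, Wnt4 was -0.95 and -4.59, and Fst was -6.03 and -3.98 in replicates 1 and 2. Of 7 ovarian somatic genes 3 were higher in replicate 1, each by more than 1, and 4 were lower, 1 of them by more than 1. Of all genes 14.6% were higher in replicate 1 by more than 1, and 11.3% were lower by more than 1. The part of somatic cells in the differences between these arrays was not tested.

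The E13.5 mean of Stra8 was called higher than in Dazl-GFP-positive ES cells, by 5.26 (adjusted p = 0.0274), a call also lost without either of those ES arrays (adjusted p of 0.0904 and 0.0950). With replicate 2 alone the difference was 1.60 with an adjusted p of 0.240, and with replicate 1 alone it was 8.93. Against day 16 the mean differed by -3.27 (adjusted p = 0.151). Replicate 2 alone was lower than day 16 by -6.94 (adjusted p = 0.00044), and replicate 1 alone stood at 0.39 above it (adjusted p = 0.790). Juvenile testis stood 2.20 above the E13.5 mean (adjusted p = 0.371), 5.86 above replicate 2 (adjusted p = 0.00124) and at -1.47 from replicate 1. The sign of both comparisons thus turned with the E13.5 library used. The lone library is assumed to vary like the other groups.

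The enzymes that make retinoic acid were highest in juvenile testis. Aldh1a1 was 2.80 and 1.84 in juvenile testis, 0.92 and 0.96 at day 16 and -2.75 and -2.28 at day 12, against -2.89 and -2.77 in Dazl-GFP-positive ES cells. It was -3.47 and -3.14 in Dazl-GFP-negative ES cells, and -3.44 and -4.20 in the GFP-positive and -3.70 and -3.65 in the GFP-negative Stella ES cells. It was not well above background on either day 7 array, at -5.02 and -4.19. At day 16 both arrays lay above all ES arrays and both day 12 arrays.

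Aldh1a1 rose by 3.77 ± 0.84 (SE) at day 16 against Dazl-GFP-positive ES cells (13.6-fold, adjusted p = 0.00756), a call kept under each of 15 alternatives. In juvenile testis it rose by 5.15 (35.5-fold, adjusted p = 3.38e-04). At day 12 the difference was 0.32 and was not called. Day 16 stood 3.45 above day 12, with 3.67 and 3.24 within the 2 slides, and an adjusted p of 0.108. With E13.5 replicate 1 left out that adjusted p was 0.00119. On the E13.5 arrays Aldh1a1 was -1.94 and 1.68, the higher level being in replicate 2, and the mean was 2.70 above ES cells (adjusted p = 0.0212, lost without replicate 2 and without either ES array, at 0.0731 to 0.131). Against day 16 the sign of the E13.5 difference turned with the library, at 0.74 for replicate 2 alone and -2.88 for replicate 1 alone. Replicate 1 of E13.5, high in Stra8, was thus low in Aldh1a1.

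Aldh1a2 was 3.36 and 1.95 in juvenile testis and -0.49 and 1.73 at E13.5, against -0.80 and -1.09 in Dazl-GFP-positive ES cells. Day 12 was -1.18 and -1.08 and day 16 was -1.48 and -1.42. The cultured groups all lay between -0.80 and -1.88. It rose by 3.61 in juvenile testis (12.2-fold, adjusted p = 2.80e-04) and by 1.57 at E13.5 (adjusted p = 0.0427), where replicate 1 alone gave 0.46 and replicate 2 alone 2.68. The E13.5 call was lost in 7 of 14 alternatives, among them either ES array or E13.5 replicate 2 left out, quantile normalization and normexp (adjusted p up to 0.395). E13.5 was 2.07 above day 16 (adjusted p = 0.0127), a call lost with replicate 1 alone (0.96, adjusted p = 0.0875) and without either day 16 array (0.0610 and 0.0529). Against E13.5, juvenile testis was higher by 2.45 in Aldh1a1 (adjusted p = 0.0408) and by 2.04 in Aldh1a2 (adjusted p = 0.0166). With replicate 2 alone these differences were 0.64 and 0.93, and neither was called. Both calls were also lost without juvenile replicate 1, at adjusted p of 0.195 and 0.143. That of Aldh1a1 was kept in 8 of 14 alternatives, and was lost too without juvenile replicate 2 (0.0581), with slide as a block, with no filter on dim probes and with only the arrays compared.

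Most Sertoli markers were also higher in juvenile testis, and at day 16, where Aldh1a1 rose, they moved in both directions. In juvenile testis 15 of 15 were well above background on both arrays. Against Dazl-GFP-positive ES cells 10 were called higher and 2 lower, where 53.9% of all genes were called in either direction. The 2 lower were Rhox5, at -7.08 (adjusted p = 7.67e-06 by limma), and Nr0b1, at -4.58 (adjusted p = 8.77e-04). Rhox5 alone carried most of the summed linear level elsewhere, so it was left out of the sum. The other 14 markers added up to 94.0 and 19.9 in juvenile testis and to 1.76 and 15.0 at E13.5. In those ES cells the sum was 8.43 and 9.16, its largest term being Nr0b1, at levels of 2.6 and 2.7. At day 16 it was 8.35 and 8.31, the largest term being Clu, at levels of 2.4 and 2.4. Nr0b1 was 0.84 and 0.70 at day 16, and Clu was 0.68 and 0.69 in those ES cells. The like sums thus rest on opposite moves of these genes and do not show that the markers stayed level. Replicate 1 of juvenile testis was the higher for the Sertoli sum, for Aldh1a1 and for Aldh1a2, and so was replicate 2 of E13.5. Amh was -2.64 and -2.64, Sox9 0.12 and -1.64 and Wt1 0.031 and -1.18 in juvenile testis. Along the culture these markers did not move together. Sox9 was -1.13 and -1.31 at day 12 and -1.48 and -1.42 at day 16, against -3.58 and -3.52 in Dazl-GFP-positive ES cells. Wt1 was -6.26 and -6.03 at day 12 and -5.56 and -5.54 at day 16, against -3.455 and -3.334. It was called lower at both days and was not well above background there. Amh was -4.45 and -3.66 at day 12 and -4.46 and -4.53 at day 16, against -5.61 and -3.89. The part of Sertoli cells in the levels of Aldh1a1 and Aldh1a2 was not tested.

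The binding proteins went opposite ways in juvenile testis. Crabp1, well above background on all arrays, was 2.29 and 2.53 in juvenile testis and 1.36 and -0.93 at E13.5, against -0.22 and -0.38 in Dazl-GFP-positive ES cells. Day 12 was -0.32 and -0.29, day 16 -0.77 and -0.69, and Stella-GFP day 7 -0.91 and -0.86. It rose by 2.71 in juvenile testis (6.55-fold, adjusted p = 0.00147), and by 2.19 against E13.5 (adjusted p = 0.00914). In the Dazl line it stood 1.26 higher in GFP-positive than in GFP-negative ES cells, where it was -1.61 and -1.50 (adjusted p = 0.336, and 0.0198 without E13.5 replicate 1). Fibroblast markers moved the same way in that sort. Their summed linear level was 57.6 and 53.7 in GFP-positive and 16.0 and 15.5 in GFP-negative cells, and their part was not tested.

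Crabp2 was dim, well above background on only 5 of 18 arrays. It was -2.58 and -4.39 at E13.5, against -3.55 and -3.58 in Dazl-GFP-positive ES cells. It was not well above background at day 12, at -4.95 and -6.07, at day 16, at -5.52 and -6.41, or in juvenile testis, at -6.53 and -7.77. It fell at day 16 (at least 2.58-fold, adjusted p = 0.0269, lost without any 1 of the 4 arrays compared at 0.0589 to 0.167) and in juvenile testis (at least 4.39-fold, adjusted p = 0.00113) against Dazl-GFP-positive ES cells, of which 1 of 2 arrays measured it. With normexp background correction both calls were lost (0.0589 and 0.0628). Against E13.5, juvenile testis was lower at least 4.62-fold (adjusted p = 0.00184). E13.5 was higher than day 16 at least 2.72-fold (adjusted p = 0.0138), a call lost without E13.5 replicate 1 (adjusted p = 0.118) or day 16 replicate 2 (0.0995).

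The receptors Rarb and Rarg differed in where they were seen. The brighter Rarb probe, with 10 spots, was well above background on all day 12, day 16 and juvenile arrays and in E13.5 replicate 1, and on no ES or day 7 array. The other Rarb probe was well above background only on the first Stella-GFP day 7 array. The brighter probe was -2.20 and -2.08 at day 12 and -1.66 and -1.72 at day 16, against -5.03 and -5.14 in Dazl-GFP-positive ES cells. In juvenile testis it was -3.78 and -4.06. The E13.5 arrays gave -1.16 and -5.33, the first above the day 16 arrays and the second among the ES arrays. Stra8 was split the same way between these libraries.

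Rarb rose at least 3.61-fold at day 12 (adjusted p = 0.0303) and at least 4.94-fold at day 16 (adjusted p = 0.0174). Leaving out E13.5 replicate 1 gave adjusted p of 1.06e-06 and 6.5e-07. The calls were lost when either replicate of either group compared was left out, with slide as a block and with low signals floored, and the day 12 call also with normexp background correction (adjusted p of 0.0642 to 0.124). At E13.5 Rarb was not called against ES cells (adjusted p = 0.115), and only replicate 1 measured it. Replicate 1 alone stood 0.53 above day 16 (adjusted p = 0.0420), while replicate 2 was below background.

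Rarg, the gamma form of the receptor, was well above background on every array and moved the other way. It was -2.29 and -2.81 at Stella-GFP day 7, against -1.05 and -1.54 in Stella-GFP-positive ES cells. In the Dazl line it was -3.46 and -2.59 at day 12, against -2.09 and -1.43 in GFP-positive ES cells. It fell by 1.25 at day 7 (adjusted p = 0.0347), by 1.27 at day 12 (adjusted p = 0.0260) and by 1.07 at E13.5 (adjusted p = 0.0348), where its arrays were -2.69 and -2.96. At day 16 the difference was -0.93 (adjusted p = 0.0896). These calls hung on single arrays. That at day 7 was lost without any 1 of its 4 arrays (0.0548 to 0.206), that at day 12 without day 12 replicate 1 (0.212) or ES replicate 2 (0.184), and that at E13.5 without ES replicate 2 (0.227) or either E13.5 array (0.0594 and 0.122). Its second probe differed by -0.84 at day 7 and -0.32 at E13.5, and by 0.71 in juvenile testis, where the first differed by -0.56. At day 12 the second probe was not well above background on either array, and at day 16 on 1 of 2.

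The enzymes that destroy retinoic acid went in opposite directions at E13.5. Cyp26a1, the family member that retinoic acid induces in ES cells, was highest in Dazl-GFP-negative ES cells. It was 0.46 and 0.41 in Dazl-GFP-positive cells, against 4.28 and 4.24 in GFP-negative cells. In the Stella line it was -2.68 and -4.02 in GFP-positive cells, against 1.19 and -1.84 in GFP-negative cells. In neither line did the sorted groups overlap, and within slides the difference was -3.82 and -3.83 in the Dazl line and -3.87 and -2.18 in the Stella line.

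The Dazl sort gave Cyp26a1 a difference of -3.82 ± 0.92 (SE), with an adjusted p of 0.0508 that just missed the threshold. It was 0.0145 without E13.5 replicate 1, and 8 of 15 alternatives called it. The Stella sort gave -3.02 (adjusted p = 0.325). The difference between the sorts was 0.80 ± 1.3 (SE), with an adjusted p of 0.9999, so the 2 lines were not shown to differ. Endoderm markers were lower with Cyp26a1 in the Dazl sort, with a summed linear level of 3.76 and 3.63 in GFP-positive and 37.8 and 35.0 in GFP-negative cells. Gata6 was -1.95 and -2.45 in GFP-positive and 1.56 and 1.51 in GFP-negative cells, and Sox17 was -2.34 and -2.47 against 1.19 and 1.03. The part of such cells was not tested.

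With differentiation Cyp26a1 was -1.27 and -1.17 at day 12 and -0.79 and -0.77 at day 16, both below the Dazl-GFP-positive ES arrays, and the differences of -1.65 and -1.22 were not called. At Stella-GFP day 7 it was -3.92 and -3.86, between its GFP-positive ES arrays, and in juvenile testis -1.02 and -0.84. At E13.5 it was -3.72 in replicate 1 and not well above background in replicate 2, at -6.52. E13.5 was lower than Dazl-GFP-positive ES cells by a log2 of -5.55 (adjusted p = 5.26e-04, kept under all 14 alternatives) and lower than day 16 by -4.34 (adjusted p = 0.00293). Juvenile testis was higher than E13.5 by 4.19 (adjusted p = 0.00438).

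Cyp26b1, the form that clears retinoic acid in the fetal testis, was not well above background on any ES array. It was 0.028 and -0.82 in juvenile testis and -1.99 and -1.79 at E13.5, and the E13.5 arrays differed by only 0.20 here. It was -3.10 and -2.85 at day 12 and -3.12 and -3.02 at day 16, against -5.60 and -4.57 in Dazl-GFP-positive ES cells. Of the 2 arrays of Stella-GFP day 7, at -4.34 and -3.60, only the second was well above background. The groups formed steps that did not overlap, with juvenile testis on top, then E13.5, then day 12 with day 16, then day 7. Replicate 1 of juvenile testis, the higher for the sum of Sertoli markers without Rhox5, was also the higher for Cyp26b1. That sum was 1.76 and 15.0 on the E13.5 arrays, where Cyp26b1 hardly differed. The part of Sertoli cells in the level of Cyp26b1 was not tested.

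Cyp26b1 rose over GFP-positive ES cells of the same reporter at least 12.1-fold in juvenile testis (adjusted p = 2.16e-06), 4.31-fold at E13.5 (adjusted p = 5.78e-05), 2.03-fold at day 12 (adjusted p = 0.00230), 1.90-fold at day 16 (adjusted p = 0.00337) and 1.57-fold at day 7 (adjusted p = 0.00837), each as a lower bound. With normexp background correction the day 7, day 12 and day 16 calls were lost, at adjusted p of 0.282, 0.239 and 0.233. The day 7 call was also lost without the second day 7 or second ES array (0.0831 and 0.0642). E13.5 was 1.18 above day 16 (adjusted p = 0.0285) and juvenile testis 1.49 above E13.5 (adjusted p = 0.0109). The first of these was lost without any 1 of its 4 arrays (0.0558 to 0.114), and the other without juvenile replicate 1 (0.0907).

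**Figure D3:**
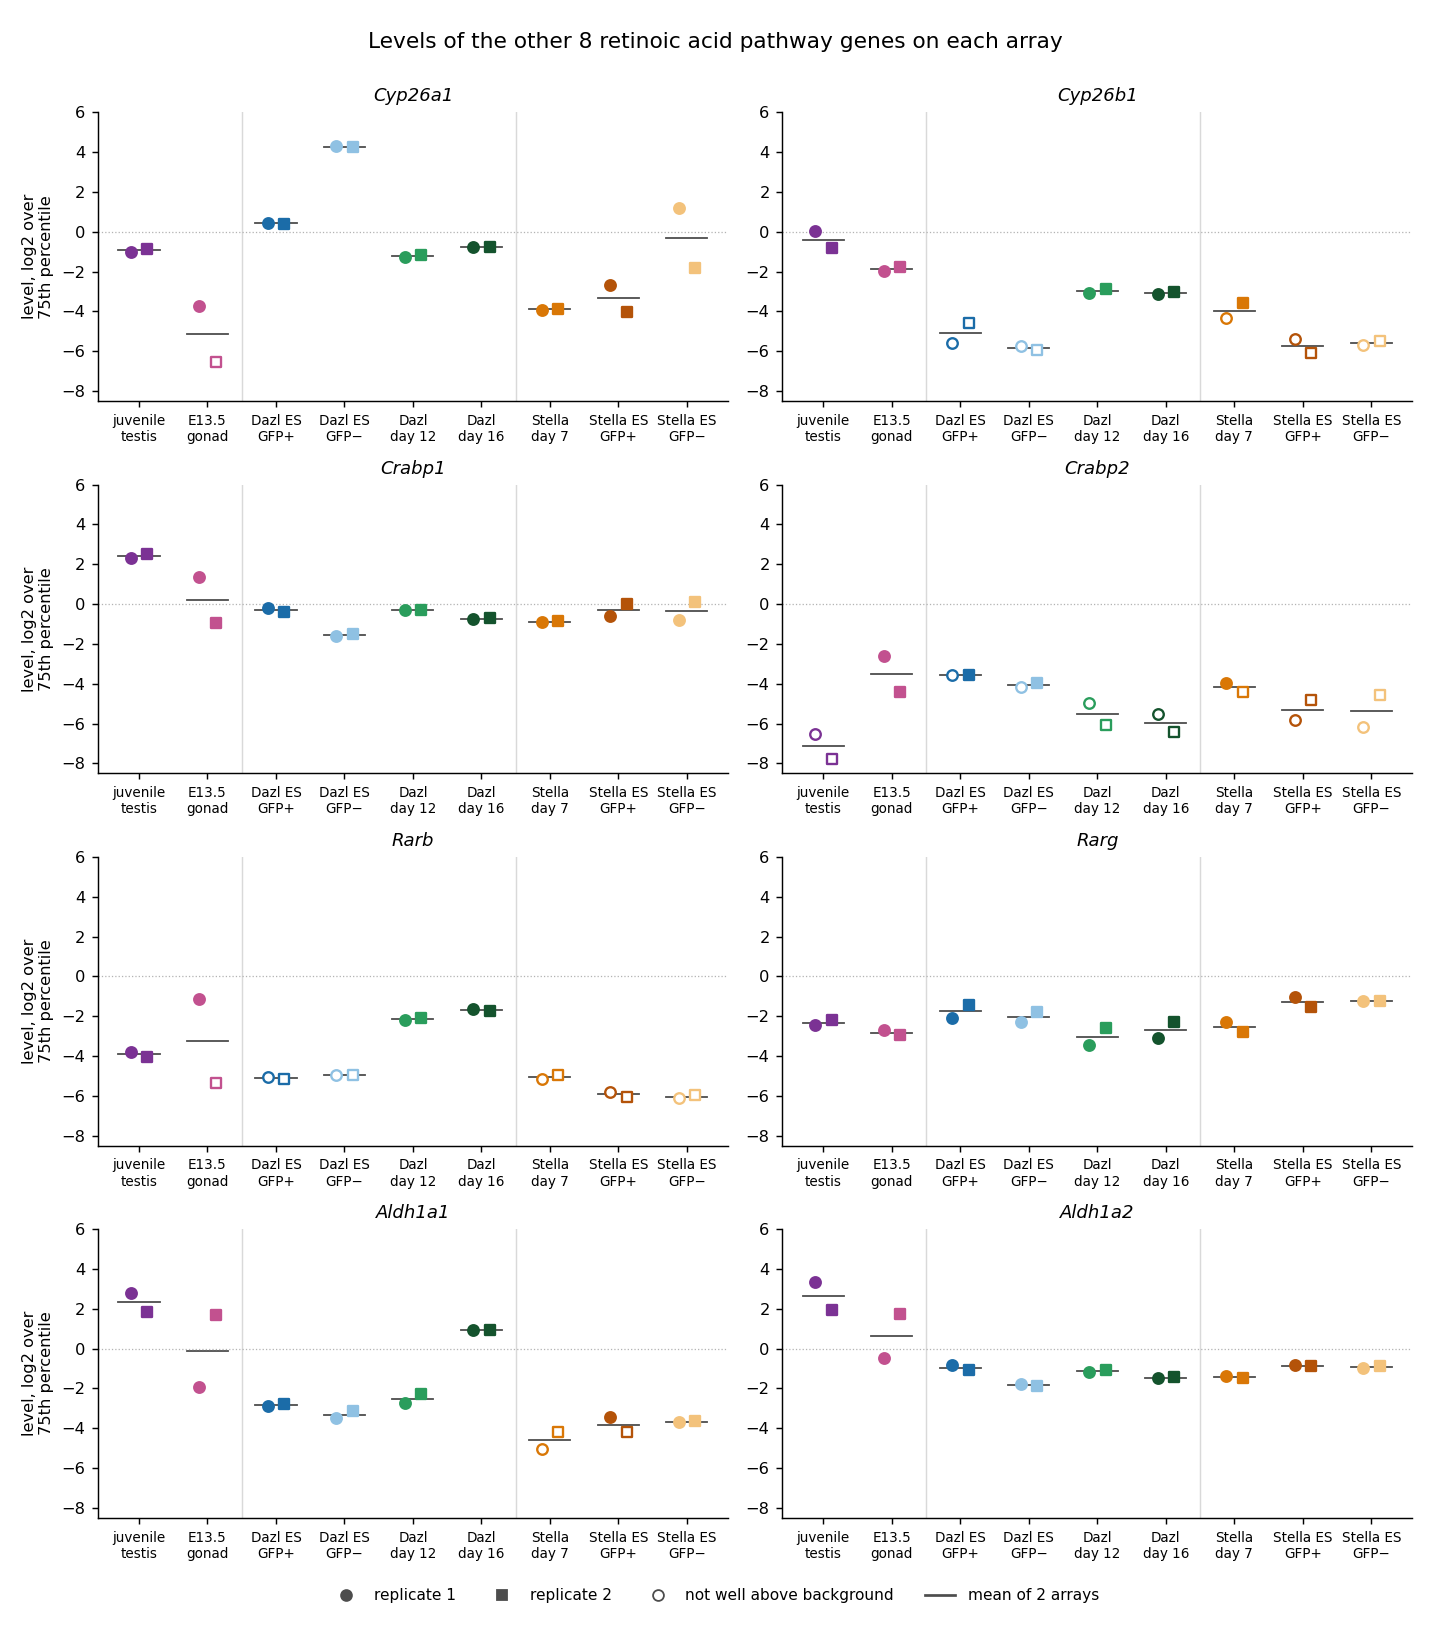
Levels of the other 8 genes on each array, in log2 of the signal over the array's 75th percentile, 1 panel for each gene. Circles are replicate 1, squares replicate 2, open symbols are not well above background and lines are means of 2 arrays; Cyp26b1 is open in all ES cells, and Aldh1a1 at day 16 lies at 0.92 and 0.96, against -2.75 and -2.28 at day 12.

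Counted over the 9 genes, limma called 3 higher and 1 lower at day 12 against Dazl-GFP-positive ES cells, where 27.3% of all genes were called in either direction. At day 16 it called 4 higher and 1 lower (24.7% of all genes), and at Stella-GFP day 7 it called 1 higher and 1 lower against GFP-positive Stella ES cells (20.6%). E13.5 had 4 higher and 2 lower (44.9%), and juvenile testis 5 higher and 1 lower (53.9%), both against Dazl-GFP-positive ES cells. E13.5 had 3 higher and 1 lower against day 16 (42.5%), and juvenile testis 5 higher and 1 lower against E13.5 (34.9%). At day 7 and for E13.5 against day 16 the share of the 9 genes called was near that of all genes, and elsewhere it was above it, which was not tested.

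The ES sorts and the later of the culture steps gave no call among the 9 genes by limma. That was so for GFP-positive against GFP-negative cells of the Stella line (0.450% of all genes called) and of the Dazl line (2.89%), for the difference between these sorts (0.0318%) and for day 16 against day 12 (1.0%). At an unadjusted p under 0.05 there were 1, 2, 0 and 1 of the 9 genes in these comparisons.

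With E13.5 replicate 1 left out, calls were counted again for the Dazl sort and each differentiated or in vivo group against GFP-positive ES cells. More genes of the array were called in each of these comparisons that did not involve E13.5. The Dazl sort then had 1 gene higher, Crabp1, and 1 lower, Cyp26a1 (7.27% of all genes called). Day 7 had 3 higher and 1 lower (30.2%), Stra8 and Rarb being added, though the Rarb probe that stands for the gene was not well above background in either group. Day 12 had 3 higher and 2 lower, Crabp2 being added (36.7%), and day 16 had 4 higher and 1 lower (34.8%). E13.5 had 3 higher and 1 lower (42.8%), without Stra8 and Rarg, and juvenile testis had 6 higher and 1 lower with Rarb added (59.7%).

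**Figure D4:**
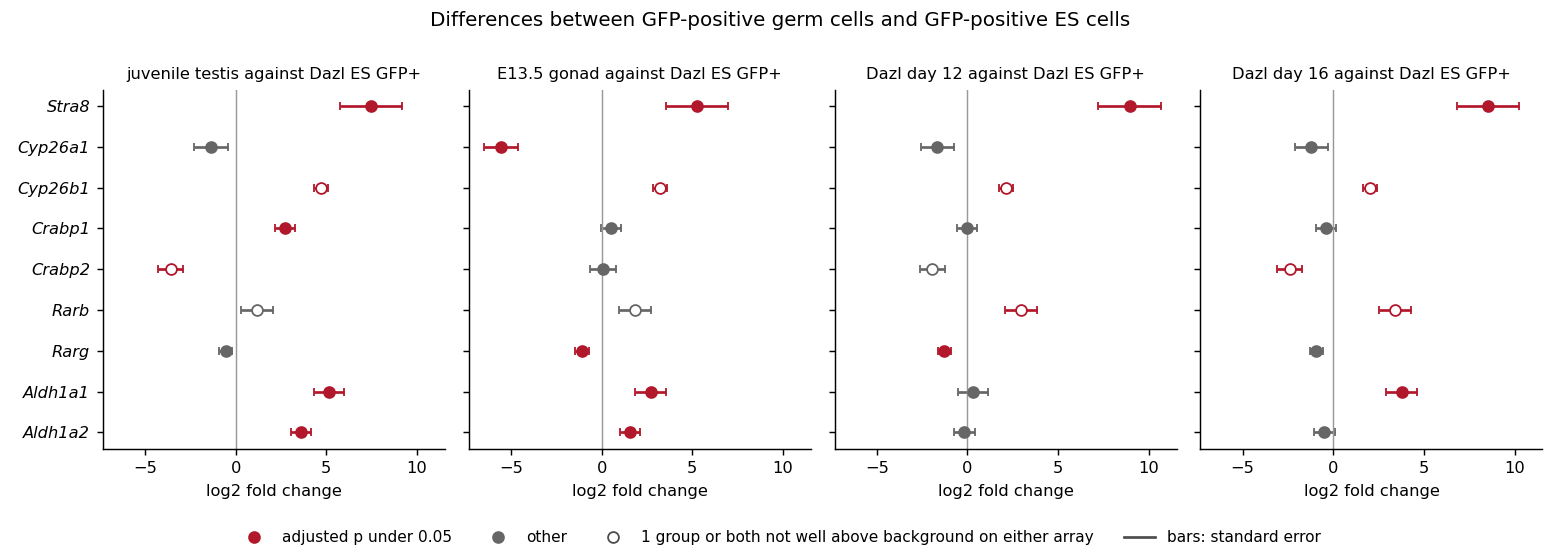
Log2 fold change of the 9 genes in 4 GFP-positive groups against Dazl-GFP-positive ES cells, with bars for the standard error. Red marks an adjusted p under 0.05 and open symbols a gene not well above background in at least 1 of the groups compared; Stra8 lies at 7.46, 5.26, 8.95 and 8.54 in juvenile testis, E13.5, day 12 and day 16. All 4 panels share the same ES arrays.

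Other genes of the pathway were taken from a list of 29, of which 23 were tested. Against Dazl-GFP-positive ES cells, 6 were called higher and 5 lower at day 12 (27.3% of all genes called), 5 and 6 at day 16 (24.7%), 5 and 6 at E13.5 (44.9%) and 8 and 4 in juvenile testis (53.9%). The list's median difference was -0.33 at day 12, -0.33 at day 16, -0.09 at E13.5 and 0.017 in juvenile testis, beside -0.11, -0.15, 0.048 and -0.0093 for all genes. At Stella-GFP day 7, 2 were higher and 4 lower (20.6%). At E13.5 and in juvenile testis the share of the list called was near that of all genes.

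Dhrs3, which turns retinaldehyde back to retinol and is induced by retinoic acid, was called lower in GFP-positive cells of both ES lines, the only gene of the list called in either sort. It was -4.10 and -3.79 in Stella-GFP-positive cells, against -0.98 and -1.32 in GFP-negative cells, at least 6.94-fold lower (adjusted p = 0.00173). In the Dazl line it was -2.52 and -2.39 in GFP-positive cells, against -0.78 and -0.92 in GFP-negative cells, a difference of -1.60 (adjusted p = 0.0158). It was thus low in the sorted cells where Cyp26a1 was low. Against Dazl-GFP-positive ES cells it rose by 1.88 at day 12 (adjusted p = 7.45e-04) and by 2.76 at day 16 (adjusted p = 6.70e-05).

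Rbp4, which carries retinol in blood and is also among the endoderm markers, rose by 2.32 at day 12 (adjusted p = 0.00168), by 3.07 at E13.5 and by 5.72 in juvenile testis (52.8-fold, adjusted p = 6.68e-07). Aldh1a3, the third enzyme of its family, rose at least 2.21-fold at day 16 (adjusted p = 0.0123) and was not well above background at E13.5. Dhrs4, a retinol dehydrogenase, fell by 3.69 in juvenile testis (adjusted p = 2.51e-06).

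Among receptor partners and cofactors, Rxra rose by 1.70 at E13.5 (adjusted p = 0.00187) and by 2.74 in juvenile testis (adjusted p = 4.76e-05). Rxrg fell at day 7, at least 5.90-fold (adjusted p = 0.00381). The coactivator Ncoa2 rose by 0.95 at day 12, 2.06 at E13.5 and 2.19 in juvenile testis. Nrip1, a corepressor that retinoic acid induces, rose by 1.72 at day 7, 1.24 at day 12 and 1.24 at day 16. Zfp423, a cofactor of retinoic acid receptors, fell in all 5 groups against GFP-positive ES cells of the same reporter, by 1.48 to 2.47 (adjusted p of 4.38e-05 to 0.00500).

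**Figure D5:**
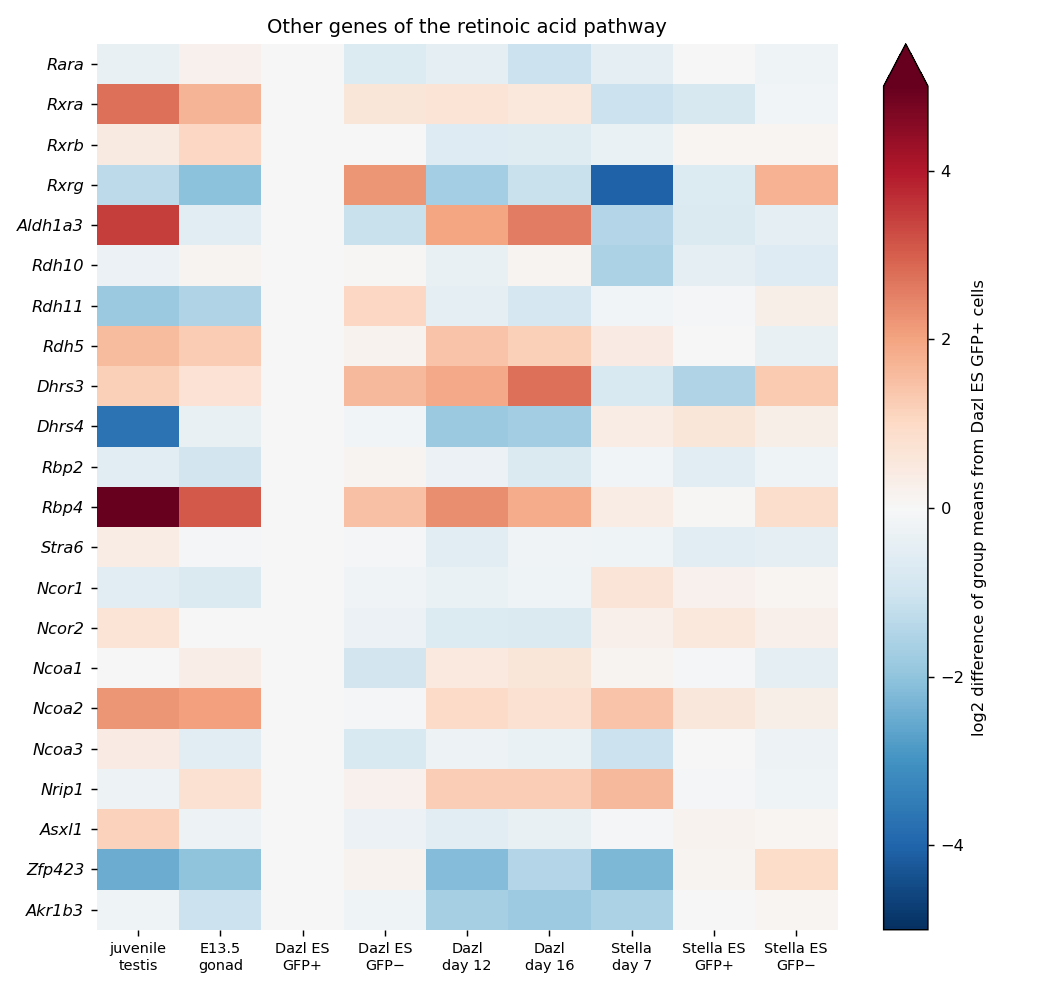
Difference of group means from Dazl-GFP-positive ES cells, in log2 units, for other pathway genes tested (rows) in the 9 groups (columns). Red is higher and blue lower than in those ES cells, whose own column is 0 by construction; Rbp4 in juvenile testis is at 5.72 and Dhrs4 at -3.69.

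Genes known to respond to retinoic acid in other tissues were mixed. Of 28 listed 20 were tested, and 7 were called higher and 2 lower at day 12 (27.3% of all genes called), 6 and 2 at day 16 (24.7%), 3 and 3 at E13.5 (44.9%) and 4 and 4 in juvenile testis (53.9%) against Dazl-GFP-positive ES cells. At E13.5 and in juvenile testis the share called was below that of all genes. The median difference was 0.45 at day 12 and 0.73 at day 16, beside -0.11 and -0.15 for all genes. Tgm2, a transglutaminase, rose by 3.69 at day 12 (12.9-fold, adjusted p = 0.00110). Meis2, a homeobox gene, rose by 3.99 at day 7, 2.21 at day 12 and 3.55 at day 16, and fell by 1.81 in juvenile testis. E13.5 was called lower than day 16 in 9 of the 20 and higher in 4 (42.5% of all genes called), with Tgm2 at -3.94 and Meis2 at -3.15. On the E13.5 arrays Tgm2 was -1.22 and -1.34 and Meis2 -2.40 and -1.33 in replicates 1 and 2.

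Fgf8, a growth factor that retinoic acid represses in the embryo, was called lower in GFP-positive cells of both ES lines, as was Dhrs3. It was -1.87 and -1.55 in Stella-GFP-positive cells, against 2.10 and 1.29 in GFP-negative cells, and 1.58 and 1.43 in Dazl-GFP-positive cells, against 5.02 and 4.97 in GFP-negative cells. In the Dazl sort Nr2f2, a nuclear receptor gene, and Rarres2, which encodes chemerin, were called higher, by 2.45 (adjusted p = 0.0352) and 1.41 (adjusted p = 0.0483). Tbx1, a transcription factor gene, rose at least 148-fold in juvenile testis (adjusted p = 1.97e-05), where it was 4.01 and 2.42. On the E13.5 arrays Tbx1 was 2.31 and -0.50.

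Meiotic entry genes were called higher more often than lower in each differentiated or in vivo group against GFP-positive ES cells. Of 25 tested, 12 were higher and 0 lower at day 12 (27.3% of all genes called), 15 and 1 at day 16 (24.7%), 20 and 0 at E13.5 (44.9%) and 18 and 0 in juvenile testis (53.9%). Their median difference was 2.33 at day 12, 2.37 at day 16, 3.57 at E13.5 and 3.83 in juvenile testis, beside -0.11, -0.15, 0.048 and -0.0093 for all genes. At Stella-GFP day 7 there were 5 higher and 1 lower (20.6%), with a median of 0.55. The counts of higher genes without E13.5 replicate 1 were 8 at day 7 (30.2% of all genes called), 16 at day 12 (36.7%), 17 at day 16 (34.8%), 16 at E13.5 (42.8%) and 22 in juvenile testis (59.7%).

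Smc1b, a meiotic cohesin, rose by 4.49 at day 7 (22.5-fold) and by 4.93 at day 12 (30.5-fold, adjusted p = 4.29e-05). Stag3, another one, rose by 3.09 at day 12 and, alone of the list, was called in the Dazl sort, by 1.29 (adjusted p = 0.0416). Tex12, of the synaptonemal complex, rose at least 11.2-fold at day 12 and at least 137-fold in juvenile testis. Its arrays were -0.51 and -0.50 at day 12 and 3.38 and 2.82 in juvenile testis. The fall at day 16 was that of Mei4, at least 1.96-fold (adjusted p = 0.0109). Day 12 and day 16 thus had Stra8 above every juvenile array and Tex12 below both of them, groups that no test compared.

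Across the 18 arrays the 6 genes most like Stra8 by Pearson's r were Nagk, Crlf2, Abca3, Lhx2, Sobp and Lrrc75a, with r from 0.963 to 0.949. The points are arrays in pairs of replicates and share slides, so these values are descriptions. By Spearman's rho 2 of the 6 remained in the list (Crlf2 and Lrrc75a), and Rec8 entered it. Without E13.5 replicate 1 also 2 remained (Nagk and Crlf2), and over the 9 group means none did. Among the 9 genes themselves Stra8 was most like Rarb (r = 0.873) and Cyp26b1 (r = 0.770), and ran opposite to Rarg (r = -0.686).

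The genes most like the other members were Tex12, Dcaf6 and Cep170 for Cyp26b1 (r of 0.967 to 0.966), Ephx4, Gata3 and Nol4l for Rarb (0.953 to 0.930) and Gbp2b, Gbp2 and Lrrk1 for Cyp26a1 (0.939 to 0.925). Aldh1a1 was most like Gml2, Smco2 and Zkscan1 (0.926 to 0.907), and Aldh1a2 like Kazald1, Cst9 and Cst11 (0.962 to 0.956). Cst9 is on the Sertoli list, at -7.15 and 2.16 on the 2 E13.5 arrays. Crabp1 was most like Stk38l, Kcnj4 and Vps13c (0.944 to 0.937), Rarg like Nectin4, Heatr3 and Emc8 (0.899 to 0.885) and Crabp2 like AW551984, Speg and Spsb2 (0.839 to 0.810). Each of these was taken from all 18876 genes over the 18 arrays.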

How the data were processed

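Agilent Feature Extraction 9.1.3.1 gave, per the file headers, background-subtracted and detrended spot signals in the unit intensity, from 1 colour and not scaled between arrays. The authors' deposited table of group means of intensity, over the array median per the file headers, served as an alternative only. The genome build of the array design is not given in the sources used here; gene positions are RefSeq's on GRCm38.p6.

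Of 43379 spots per array that are not controls, 172 probes flagged as outliers were dropped. A level is the log2 ratio of signal to that array's 75th percentile, averaged over a probe's spots. Probes were named by accession (22951) or symbol (9755), or kept the file's name (8468). A probe passed where the extraction marked it well above background on both arrays of any group (28114 probes), and the brightest probe stood for each of 18876 genes. All 9 members passed. A probe above background on no array of a group gives only a bound there, written as at least N-fold: the bright group's mean against the mean, per dim array, of the higher of the probe's level and the lowest level well above background.

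The 9 groups were fitted in R 4.3.3 by limma 3.58.1, with tables read by the data.table package, version 1.17.8 (9 residual and 2.38 prior degrees of freedom, prior SD 0.289), with 11 two-sided comparisons. On data simulated for day 12, 67 of 100 genes shifted by 2 and 99 of 100 shifted by 4 (log2) were called, and 11 of 18676 unshifted ones. The simulated noise was independent between arrays, with 1 spread for each gene in all groups and no slide effect. The real arrays share slides and differ in spread between groups, so these counts check the fit and are not error rates of the calls above. Figures were drawn by matplotlib 3.10.9 under Python 3.11.15, from pandas 2.3.3 and numpy 2.4.6 tables.

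Members, lists and alternatives were chosen with earlier results of these data known. Named genes were all members, up to 4 called genes per list, direction and comparison by p, the first 3 markers of a cell type, markers on the E13.5 arrays and the genes most like each member. The arrays lay on 6 slides, and the number of arrays limits the precision. Alternatives changed the background correction, normalization, floor, filter, probe rule, prior, slide or replicate block, the arrays fitted, or left out 1 array. Same-numbered ES samples mostly shared a slide, but over all groups replicate numbers did not meet the rule for pairing (every correlation over 0.1). One gene of the pathway list is counted but not reported here by name.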

Additional observations from a re-analysis of the deposited data

How the results depend on the processing

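Of 33 calls among the 9 genes over all comparisons, 10 were kept under every alternative run for them: Stra8 and Aldh1a1 at day 16 and in juvenile testis, Stra8 at day 12, Cyp26a1 and Cyp26b1 at E13.5, and Crabp1, Aldh1a2 and Cyp26b1 in juvenile testis, all against Dazl-GFP-positive ES cells. Fitted values changed sign without E13.5 replicate 1 for Rarb at E13.5 against ES cells (-0.25) and Aldh1a1 at E13.5 against day 16 (0.74), and without E13.5 replicate 2 for E13.5 against day 16 in Rarb (0.53) and Stra8 (0.39) and for juvenile testis against E13.5 in Stra8 (-1.47). With the other E13.5 library left out instead, these 5 differences were 3.93, -2.88, -3.64, -6.94 and 5.86. The authors' deposited table gave -0.51 for Stra8 in juvenile testis against E13.5. It averages linear signals, in which the brighter array weighs more. The number of the 9 genes called in the Dazl sort was 1 with quantile normalization, normexp, low signals floored, a stricter filter, an intensity trend or the replicate block, and 4 with only the arrays compared. At day 7 it was 1 with normexp, floored signals or no filter, and 0 with only the arrays compared. At day 12 it was 2 with normexp. With only the arrays compared it was 5 for day 16 against day 12 and 2 for E13.5 against ES cells. It was 1 for E13.5 against day 16 and 0 for juvenile testis against E13.5, and fewer samples enter those fits. Of the 9 genes only Aldh1a1 differed by more than 1 between day 16 and day 12, at 3.45. The share of all genes called is not given here for these alternatives. Their counts, and those with a library left out below, thus cannot be read as results about the 9 genes. Leaving out 1 library gave 0 to 2 calls in the Dazl sort, 0 to 4 at day 7, 2 to 5 at day 12, 3 to 5 at day 16, 0 to 1 for day 16 against day 12, 2 to 5 and 1 to 5 for E13.5 against ES cells and day 16, and 6 to 7 and 3 to 7 for juvenile testis against ES cells and E13.5. Deviations of same-numbered samples correlated at -0.14 to 0.558 over 36 pairs of groups, over 0.1 in 8, so a number was not taken as a pairing. Replicate 1 of all 4 ES groups shared a slide, for which the slide block stands. The replicate block moved no other count of calls by over 1.5 times. A random slide block had a correlation of -0.0526. The Rarb values above that involve ES cells or E13.5 replicate 2 (-0.25, 3.93 and -3.64) rest on signals not well above background, so their size and sign carry no order.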
